A study of Mus musculus with 6 samples.

Results

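A set of 40 genes of glycolysis and glycogen metabolism was examined in differentiating C2C12 cells with and without Hnrnpa2b1. The genes were chosen by name, from glucose carriers to glycogen enzymes, out of 46078 genes listed in the count table, with earlier results of these data known. Of the 40, 38 had 10 or more counts in at least 3 libraries and were tested together with all other expressed genes, 14828 in total, while Pygl and Fbp2 were too low. C2C12 is an immortalised line of mouse myoblasts, and Hnrnpa2b1 encodes a nuclear protein of the hnRNP family that binds RNA and takes part in its processing. The study made Hnrnpa2b1 KO cells with CRISPR-Cas9 and puromycin selection and isolated 3 independent KO and 3 independent WT clones. Total RNA was sequenced as 3 libraries labelled KO and 3 labelled WT after 2 days of serum withdrawal with ITS supplement, a mixture of insulin, transferrin and selenium. The sources used here do not say which clone gave which library, so differences between clones and an effect of the genotype cannot be told apart within a library, and the p-values measure only the spread between these 6 libraries.

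Glycolysis splits glucose into pyruvate in a preparatory phase that spends ATP and a payoff phase that makes it, and muscle carries its own isoforms of several of the enzymes. Pfkm, Pgam2 and Eno3 encode the muscle forms of phosphofructokinase, phosphoglycerate mutase and enolase, while Pfkl, Pgam1 and Eno1 encode forms found in most other cells. Muscle also stores glucose as glycogen, which Pygm, the muscle glycogen phosphorylase, breaks down under control of phosphorylase kinase, whose muscle subunits are encoded by Phka1 and Phkg1. During normal myoblast differentiation the muscle forms are known to become more abundant.

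In the KO libraries 11 of the 38 genes were lower and 4 were higher at an adjusted p under 0.05, and 23 were not called. All 15 calls together are 39.5% of the genes, against 22.7% of all genes tested. The 11 lower genes are 28.9%, against 10.6% of all genes tested, and the 4 higher genes are 10.5%, against 12.1%. For 18 of the 38 genes, or 47.4%, the ranges of the 2 genotypes were apart, close to the 44.3% of all genes tested. The median log2 fold change of the 38 genes was -0.12, with a range of -3.72 to 2.00, and that of all genes tested was 0.03. The lower genes were Slc2a4, Hk1, Pfkm, Tpi1, Gapdh, Pgam2, Pygm, Phka1, Gyg, Ugp2 and Pfkfb3. The higher genes were Pfkl, Pgam1, Eno1 and Pfkfb4. Under all 15 alternative settings tried, Slc2a4, Pygm, Phka1, Gyg, Pfkl and Pgam1 were called again, and no called gene changed sign.

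The libraries held 33605258 to 40558740 counts in genes, and the TMM factors that scaled them ran from 0.9488 to 1.077. Hnrnpa2b1 itself was at 159, 195 and 249 CPM (counts scaled to the library total) in KO1, KO2 and KO3 and at 225, 229 and 252 CPM in WT1, WT2 and WT3, a log2 fold change of -0.23 ± 0.18 (SE) with an adjusted p of 0.381. Total counts over a gene do not read a small Cas9 edit, so these values do not check the genotype labels. Libraries within a genotype were not alike for these genes. WT2 was the lowest WT library for 28 of the 38 genes and KO3 the lowest KO library for 25. Myog, which marks differentiating myoblasts, was present in every library, at 1005 to 1709 CPM. Of 8 tested myogenic markers 2 were higher in KO and none was lower, or 25% called, near the 22.7% of all genes tested. Their median log2 fold change was -0.14, with 4 of 8 negative. The higher markers were Myod1, a myoblast determination factor, at a log2 fold change of 0.99 ± 0.20 (SE) with an adjusted p of 0.0141, and Cdh15, the myoblast adhesion gene M-cadherin, at 0.70 ± 0.17 with an adjusted p of 0.0258. Among 10 markers of other cell types 3 were high enough to test, and Ly6a and Pdgfra, which are known to mark fibro-adipogenic cells in muscle, were higher in KO. They are 66.7% of the 3, against 12.1% higher among all genes tested. Ly6a was at 57.6, 84.2 and 33.4 CPM in KO and at 7.98, 8.26 and 9.54 CPM in WT. Pdgfra was at 6.32, 8.59 and 12 CPM in KO and at 3.59, 3.47 and 4.93 CPM in WT, and the summed level of all 10 markers was 35 to 69.6 TPM in KO and 8.65 to 9.21 TPM in WT. Adipoq, Plin1 and Epcam, which mark fat and epithelial cells, were at 0 TPM in all 6 libraries, and Ptprc, Pecam1 and Cdh5, which mark blood and endothelial cells, had at most 11 counts in any. The part of these markers in the results given here was not tested.

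The genes that moved include some of the most abundant transcripts of the set. On the scale of TPM (a share of all transcripts, corrected for length), the 40 genes summed to 4210, 4156 and 3328 TPM in KO and to 5788, 4233 and 5092 TPM in WT. All 3 KO sums lie under the lowest WT sum, but KO1 and WT2 differ by less than the libraries of either genotype. In WT, Aldoa led at 973 ± 224 TPM (SD, n = 3), followed by Gapdh at 905 ± 142 TPM and Eno3 at 628 ± 121 TPM. Aldoa and Gapdh overlapped between WT libraries, and Eno3 was below both in each of them. In KO, Aldoa was at 887 ± 226 TPM, Pkm at 543 ± 11.4 TPM and Gapdh at 544 ± 63.5 TPM. Aldoa and Pkm, the genes of aldolase A and muscle pyruvate kinase, overlapped between the genotypes, with log2 fold changes of -0.12 ± 0.33 (SE) and -0.06 ± 0.19. The Pkm value sums both splice forms of the gene.

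**Figure D1:**
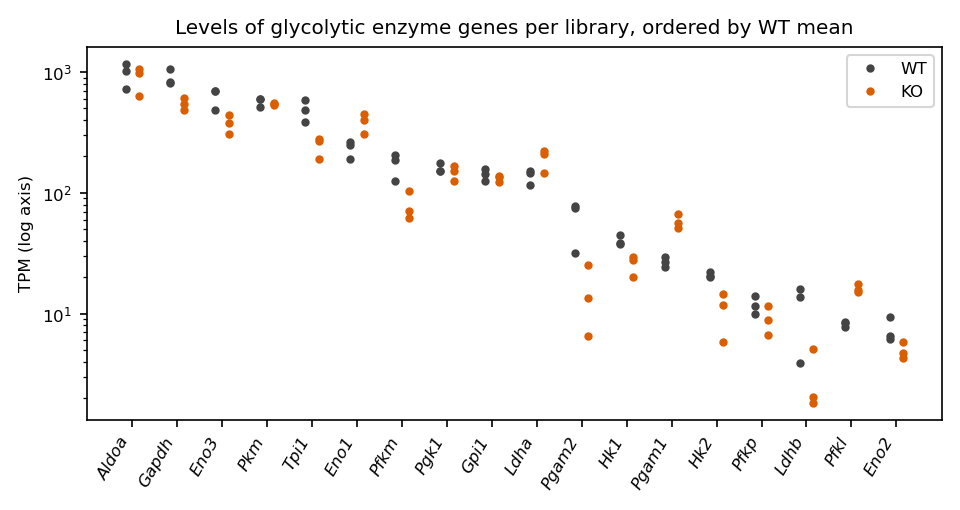
Level in TPM (log axis) of 18 glycolytic enzyme genes in each library, ordered by the WT mean. Each point is a library, grey for WT and orange for KO. The 3 KO points of Gapdh, Tpi1, Pfkm and Pgam2 lie below the 3 WT points, and those of Eno1, Pgam1 and Pfkl lie above them.

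Glucose enters muscle through Slc2a4, the insulin-responsive carrier GLUT4, and through Slc2a1, the general carrier GLUT1. Slc2a4 (ENSMUSG00000018566, chr11:69942539-69948188, GRCm38) was the most lowered gene of the set. It had 7.72, 2.56 and 1.27 CPM in KO and 52.1, 29.4 and 69.9 CPM in WT. The KO libraries were all far below the WT libraries, with a log2 fold change of -3.72 ± 0.65 (SE), which is 13.2-fold lower, and an adjusted p of 0.00819. The size depends on KO1 and on the scale, since the log2 fold change was -4.72 without KO1 and -2.86 with limma on log2(TPM + 1), and it was called in both. Slc2a1 stood at 62.3, 60.1 and 62.8 CPM in KO and at 50.7, 56.9 and 56.1 CPM in WT. Its libraries did not overlap either, but the log2 fold change of 0.18 ± 0.11 was not called, with an adjusted p of 0.268. Slc2a4 made up 14.1%, 5.58% and 2.09% of the summed TPM of both carriers in KO and 56%, 38.9% and 60.7% in WT. The lactate carriers Slc16a1 and Slc16a3 overlapped between the genotypes. Slc16a1 had 382 CPM in KO1 but 131 and 119 CPM in KO2 and KO3, around WT values of 217 to 289 CPM. Its adjusted p of 0.613 became 0.00348 without KO1, at a log2 fold change of -1.08.

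In the preparatory phase 3 of 9 genes were lower, against 10.6% of all genes tested, 1 was higher, against 12.1%, and 5 were not called, with a median log2 fold change of -0.45. Hexokinases trap glucose in the cell as glucose 6-phosphate. Hk1 (ENSMUSG00000037012, chr10:62268855-62379908) had 140, 185 and 163 CPM in KO and 279, 228 and 258 CPM in WT, a log2 fold change of -0.65 ± 0.15 (SE) with an adjusted p of 0.0228. Hk2, the form most tied to insulin-responsive tissue, had 129, 49.9 and 84.0 CPM in KO and 167, 171 and 175 CPM in WT. The groups of both hexokinases did not overlap, but Hk2 just missed the threshold, with a log2 fold change of -0.97 ± 0.30 and an adjusted p of 0.0526, and it was called in 6 alternatives, among them DESeq2, limma on log2(TPM + 1) and edgeR without KO1. Phosphofructokinase commits the sugar to glycolysis, and Pfkm and Pfkl moved in opposite directions. Pfkm (ENSMUSG00000033065, chr15:98092589-98132447) had 487, 318 and 232 CPM in KO and 854, 516 and 852 CPM in WT, a log2 fold change of -1.10 ± 0.31 with an adjusted p of 0.0401. Pfkl (ENSMUSG00000020277, chr10:77986947-78010083), the liver form, had 89.9, 101 and 75.2 CPM in KO and 46.7, 43.9 and 44.1 CPM in WT, a log2 fold change of 0.98 ± 0.14 with an adjusted p of 0.00435. Pfkp, the platelet form, had 53.7, 37.6 and 51.4 CPM in KO and 62.9, 75.3 and 56.8 CPM in WT, and was not called at an adjusted p of 0.0984. The highest KO library of Pfkm, KO1, was close to the lowest WT library, WT2, whereas every KO library of Pfkl was well above every WT library.

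Tpi1 encodes triosephosphate isomerase, which lets all of the split sugar go on to the payoff phase. Tpi1 (ENSMUSG00000023456, chr6:124810586-124814296) had 678, 666 and 383 CPM in KO and 1283, 847 and 1172 CPM in WT, a log2 fold change of -0.94 ± 0.27 (SE) with an adjusted p of 0.0432. Gpi1, Aldoa and Aldoc, the genes of glucose phosphate isomerase and of 2 aldolases, overlapped between the genotypes with log2 fold changes of -0.12 to 0.17. The calls of Hk1, Pfkm and Tpi1 held without KO1 and without WT2 but depended on other libraries. Hk1 had an adjusted p of 0.0582 without KO3, 0.104 without WT1 and 0.074 without WT3. Pfkm had 0.0907 without KO2, 0.0971 without KO3, 0.142 without WT1 and 0.116 without WT3. For Tpi1 these adjusted p were 0.0567, 0.0812, 0.16 and 0.114. Pfkl kept an adjusted p of 0.0305 or less whichever library was left out.

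**Figure D2:**
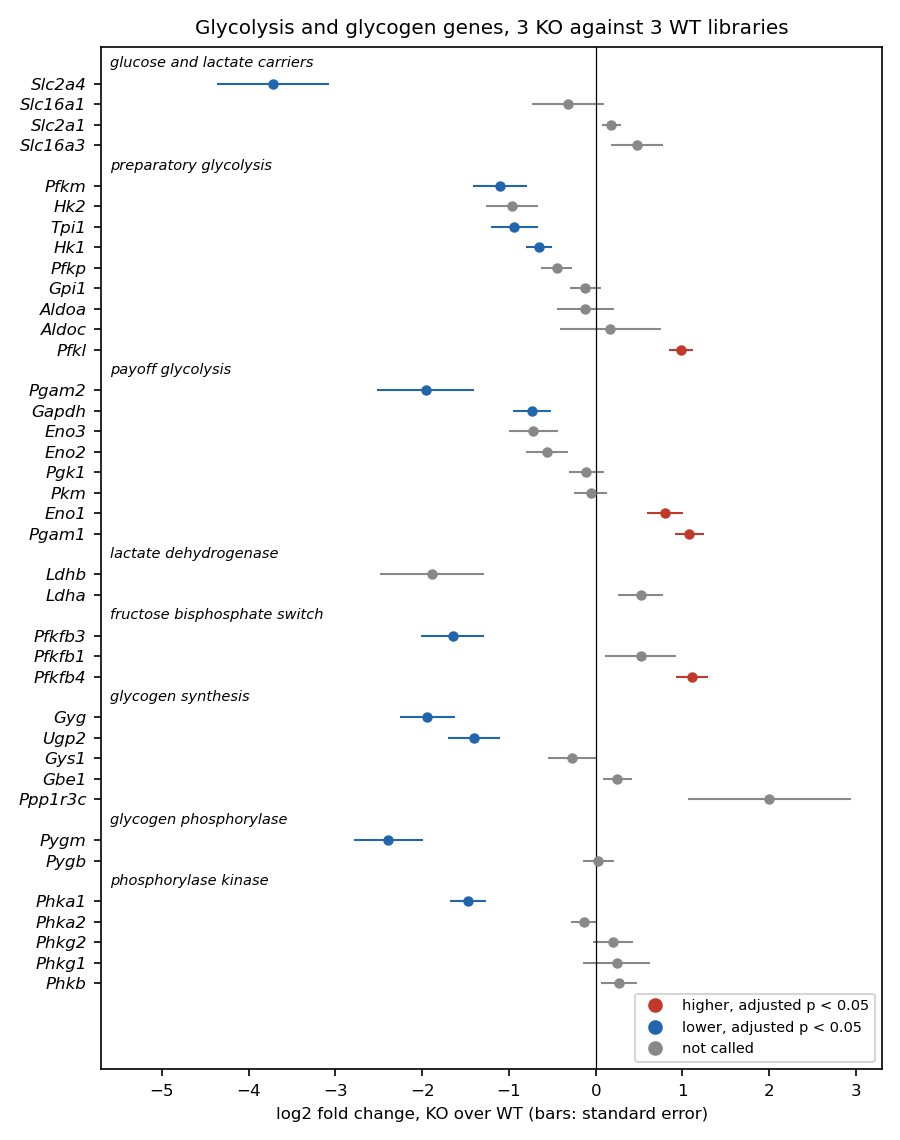
Log2 fold change of KO over WT for the 38 tested genes, grouped by role, with bars of 1 standard error from 3 libraries a genotype. Blue points are lower, red points higher and grey points not called, and Slc2a4 stands farthest to the left at -3.72 while Pgam1, at 1.08, and Pfkfb4, at 1.11, are the highest called genes.

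The payoff phase held 2 lower and 2 higher genes among 8, or 25% each way against 10.6% and 12.1% of all genes tested, with a median log2 fold change of -0.34. Gapdh (ENSMUSG00000057666, chr6:125161715-125166467), glyceraldehyde 3-phosphate dehydrogenase, is often used as a reference gene of constant level. Its counts were 1010, 1104 and 742 CPM in KO and 1840, 1361 and 1536 CPM in WT, a log2 fold change of -0.73 ± 0.22 (SE) with an adjusted p of 0.0495. Every KO library was under every WT library, but the call was at the edge of the threshold and was lost without KO2, KO3, WT1, WT2 or WT3, at adjusted p of 0.0518, 0.11, 0.196, 0.0705 and 0.11. Pgk1, which makes the ATP of the next step, was not called, at 277 to 450 CPM in KO and 366 to 439 CPM in WT.

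Phosphoglycerate mutase showed the widest split between isoforms. Pgam2 (ENSMUSG00000020475, chr11:5801640-5803733), the muscle form, had 34.6, 18.3 and 7.47 CPM in KO and 96.2, 37.7 and 99.9 CPM in WT. Pgam1 (ENSMUSG00000011752, chr19:41911871-41918664), the general form, had 72.1, 88.6 and 56.6 CPM in KO and 32.5, 36.6 and 33.7 CPM in WT. Pgam2 was 3.88-fold lower, at a log2 fold change of -1.96 ± 0.56 (SE) and an adjusted p of 0.0414, and Pgam1 was 2.11-fold higher, at 1.08 ± 0.17 and an adjusted p of 0.00644. In TPM, Pgam2 was above Pgam1 in each WT library, by 77.8 to 26.5, 31.5 to 29.7 and 75.2 to 24.4. In each KO library it was below Pgam1, by 25.1 to 56.2, 13.5 to 67.3 and 6.47 to 51.1. The order of these genes thus turned over between the genotypes, although WT2 held nearly equal levels. Pgam1 was called whichever library was left out, with an adjusted p of 0.0445 or less. Pgam2 was not called without KO2, KO3, WT1 or WT3, at adjusted p of 0.0936, 0.0748, 0.132 and 0.118, and its log2 fold change was -2.60 without KO1.

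Enolase makes phosphoenolpyruvate, the substrate of pyruvate kinase. Eno1 (ENSMUSG00000063524, chr4:150236721-150248879), the general form, had 559, 852 and 615 CPM in KO and 421, 318 and 425 CPM in WT, a log2 fold change of 0.80 ± 0.21 (SE) with an adjusted p of 0.033. Eno3 (ENSMUSG00000060600, chr11:70657202-70662513), the muscle form, had 1040, 837 and 571 CPM in KO and 1447, 993 and 1598 CPM in WT. KO1 lay above WT2, and the log2 fold change of -0.72 ± 0.28 was not called, with an adjusted p of 0.0964. It was 0.0326 without KO1, 0.0308 with DESeq2, 0.0148 in edgeR without a filter and 0.0432 with limma on log2(TPM + 1), and in TPM the groups did not overlap, at 440, 376 and 305 TPM in KO and 692, 489 and 703 TPM in WT. Eno2, the neuronal form, had 23.6, 16.3 and 14.4 CPM in KO and 33.2, 21.1 and 25.6 CPM in WT and was not called at an adjusted p of 0.126. Eno1 was higher in 3 of 3 KO libraries than in any WT library, but was not called without KO2, KO3, WT1, WT2 or WT3, at adjusted p of 0.0686, 0.0555, 0.108, 0.105 and 0.0929. Eno1b, a near-identical copy of Eno1, took 9.46% to 12.7% as many counts as Eno1 in each library, and how reads were shared between the copies is not given in the sources used here.

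Neither lactate dehydrogenase gene was called. Ldha, the form that prevails in fast muscle, had 532, 512 and 295 CPM in KO and 347, 240 and 347 CPM in WT, with an adjusted p of 0.177. Ldhb, the heart form, had 4.34, 10.1 and 3.10 CPM in KO and 30.2, 7.19 and 27.9 CPM in WT. WT2 was well below the other WT libraries and below KO2, and the log2 fold change of -1.89 ± 0.60 (SE) had an adjusted p of 0.0563. Ldhb was called in edgeR without a filter, with limma on log2(TPM + 1), without KO2 and without WT2. Over the alternatives its log2 fold change ran from -2.55 to -1.51. Ldhb made up 0.963% to 2.23% of the TPM of both genes in KO and 3.24% to 9.43% in WT.

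**Figure D3:**
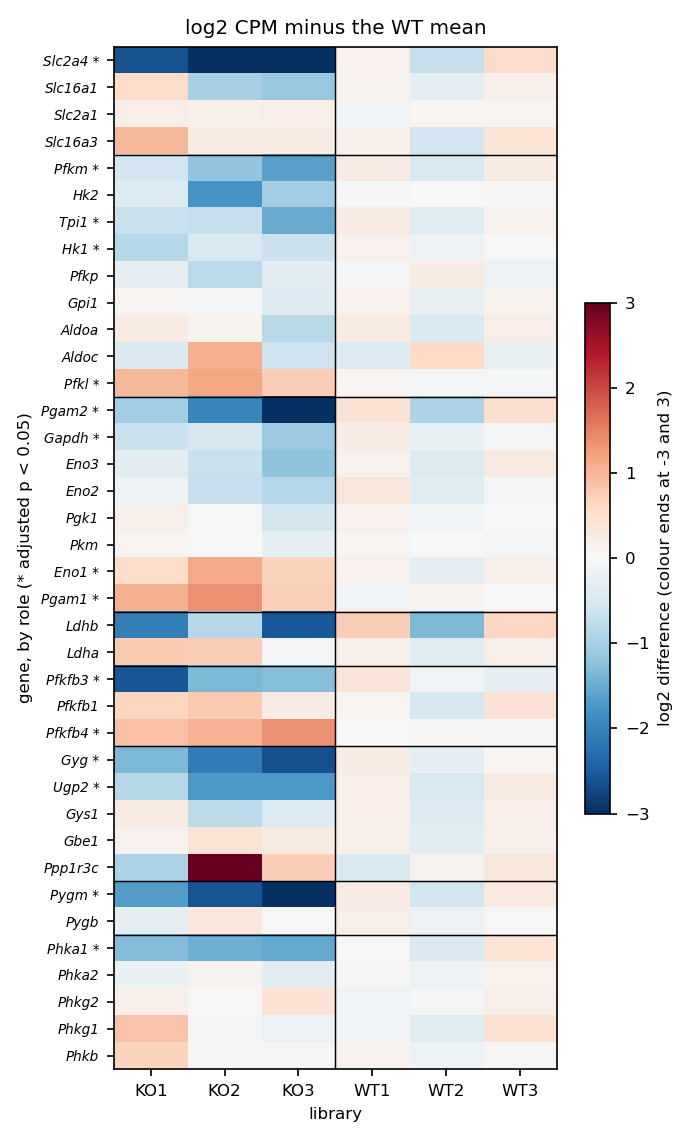
Log2 CPM of each tested gene in each library minus the mean of the WT libraries, blue for lower and red for higher, with genes grouped by role and an asterisk on the 15 called genes. Pygm, Gyg, Slc2a4 and Phka1 are blue in all 3 KO libraries, and Ppp1r3c is deep red in KO2 alone.

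The bifunctional enzymes of the Pfkfb family set the level of fructose 2,6-bisphosphate, the activator of phosphofructokinase, and moved in opposite directions. Pfkfb3 (ENSMUSG00000026773, chr2:11471433-11554077) had 1.73, 4.03 and 4.22 CPM in KO and 13.2, 9.63 and 8.57 CPM in WT, a log2 fold change of -1.65 ± 0.36 (SE) with an adjusted p of 0.0171. Pfkfb4 (ENSMUSG00000025648, chr9:108991778-109032228) had 10.1, 11.2 and 14.1 CPM in KO and 5.52, 5.61 and 5.23 CPM in WT, a log2 fold change of 1.11 ± 0.19 with an adjusted p of 0.00768. Neither gene overlapped between the genotypes. Pfkfb3 was not called without WT1, at an adjusted p of 0.0792, and its log2 difference was -0.79 with limma on log2(TPM + 1), while Pfkfb4 was called whichever library was left out. Pfkfb1 was below 1 CPM in every library and was not called, and Fbp2, the muscle fructose bisphosphatase, had 1 count in KO1, 2 counts in WT3 and 0 elsewhere.

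The pathway from glucose to glycogen runs through Ugp2, which makes UDP-glucose, Gyg, which primes the glycogen particle, Gys1, the muscle glycogen synthase, and Gbe1, the branching enzyme. The 2 genes ahead of the synthase were lower. Gyg (ENSMUSG00000019528, chr3:20122084-20155317) had 79.9, 47.4 and 32.3 CPM in KO and 235, 166 and 211 CPM in WT, a log2 fold change of -1.94 ± 0.32 (SE), or 3.83-fold lower, with an adjusted p of 0.00695. Ugp2 (ENSMUSG00000001891, chr11:21321138-21371201) had 128, 70.0 and 70.4 CPM in KO and 265, 166 and 280 CPM in WT, a log2 fold change of -1.40 ± 0.30 with an adjusted p of 0.0156. For Gyg the highest KO library was below the lowest WT library by a wide margin, and the call held whichever library was left out. Ugp2 was not called without KO3, WT1 or WT3, at adjusted p of 0.0522, 0.068 and 0.0575. Gys1 had 258, 126 and 161 CPM in KO and 246, 165 and 247 CPM in WT, with a log2 fold change of -0.27 ± 0.28. Gbe1 was at 15.3 to 25.4 CPM in all libraries, with a log2 fold change of 0.25 ± 0.17. Ppp1r3c, a subunit that brings protein phosphatase 1 to glycogen, had the highest fitted value of the set, 2.00 ± 0.94, but this came from 8.84 CPM in KO2 against 0.448 and 1.46 CPM in the other KO libraries and 0.636 to 1.10 CPM in WT, and its adjusted p was 0.155. Ppp1r3c was called in edgeR without a filter and without KO1, and over the alternatives its log2 fold change ran from 0.11 to 2.52.

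Glycogen breakdown showed the largest change after that of Slc2a4. Pygm (ENSMUSG00000032648, chr19:6384399-6398459) had 144, 76.4 and 51.0 CPM in KO and 544, 317 and 567 CPM in WT. Each KO library had less than the lowest WT library, and the log2 fold change was -2.39 ± 0.40 (SE), or 5.26-fold lower, with an adjusted p of 0.00739. Pygb, the brain form of the phosphorylase, had 26.5, 40.9 and 32.6 CPM in KO and 36.6, 29.3 and 32.3 CPM in WT, a log2 fold change of 0.03 ± 0.18. Pygl, the liver form, had 6, 21 and 5 counts in KO and 0 in each WT library. With a floor of 3 counts set for the WT group, the level in KO was 9.26-fold higher. This value allows for counting error in WT only, not for that in KO or for the spread between libraries. KO2 gave 21 of the 32 KO counts. With so few counts Pygl was not among the genes tested, and its TPM of 2.22 in KO1 does not go with its 6 counts there.

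Phosphorylase kinase switches the phosphorylase on and is built from alpha, beta and gamma subunits and a calcium sensor. Phka1 (ENSMUSG00000034055, chrX:102513975-102644246), the muscle alpha subunit, had 28.4, 25.3 and 24.2 CPM in KO and 70.7, 52.1 and 92.6 CPM in WT, a log2 fold change of -1.47 ± 0.21 (SE) with an adjusted p of 0.00465. Phka2, the liver alpha subunit, had 46.5, 56.7 and 42.0 CPM in KO and 53.9, 47.6 and 57.9 CPM in WT, with an adjusted p of 0.543. The KO libraries of Phka1 were close to each other and all at less than the lowest WT library, while the ranges of Phka2 overlapped between the genotypes. Phkb, the beta subunit, was not called, at 235 to 368 CPM in KO and 207 to 250 CPM in WT. Phkg1 (chr5:129863421-129898549), the muscle gamma subunit, was low, at 2.94, 1.56 and 1.44 CPM in KO and 1.53, 1.25 and 2.21 CPM in WT, with an adjusted p of 0.676. Phkg2, the liver and testis form, was at 3.95, 3.57 and 4.78 CPM in KO and 3.24, 3.47 and 3.99 CPM in WT, with an adjusted p of 0.559.

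Set side by side, the 6 muscle isoforms comprised 4 lower genes, Pfkm, Pgam2, Pygm and Phka1, and 2 that were not called, Eno3 and Phkg1, with a median log2 fold change of -1.29. The 4 lower genes are 66.7% of the 6, against 10.6% of all genes tested. Of the 9 general partners 8 were tested, 3 were higher, Pfkl, Pgam1 and Eno1, none was lower and the median was 0.12. The 3 higher genes are 37.5% of the 8, against 12.1% of all genes tested. The balance within a family compares genes inside the same library, so it does not depend on how libraries were scaled to each other. The share of the muscle isoform in the TPM of its family was taken for this. For phosphoglycerate mutase, Pgam2 was 30.9%, 16.7% and 11.2% of the family in KO and 74.6%, 51.4% and 75.5% in WT. For enolase, Eno3 was 58.3%, 45.4% and 43.0% in KO and 71.8%, 71.2% and 73.2% in WT. The WT shares of Eno3 lay within a few percentage points of each other even though WT2 had the lowest Eno3 count.

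Phosphorylase and phosphofructokinase kept the muscle gene as the main form in every library, at a smaller share in KO. Pygm was 82.8%, 71.4% and 68.2% of its family in KO and 95.3%, 93.5% and 96.0% in WT, and Pfkm was 81.1%, 74.5% and 69.2% in KO and 91.0%, 84.8% and 91.3% in WT. Without Pygl, whose TPM in KO1 does not go with its count, the Pygm share was 88.1%, 71.7% and 68.2% in KO and the same as before in WT. Phka1 was the lesser alpha subunit in all libraries, at 25.0%, 17.6% and 20.6% in KO and 34.6%, 39.7% and 48.8% in WT. In these 5 families the highest KO share was under the lowest WT share. The log2 ratio of the muscle gene to its partners differed between KO and WT by -3.24 for Pgam, -2.69 for Pyg, -1.47 for Pfk, -1.43 for Eno and -1.39 for Phka. It was -2.48 for Pygm with Pygb as the only partner and -2.11 for Pfkm with Pfkl as the only partner. Each had an exact two-sided permutation p of 0.1, the smallest that 3 against 3 libraries allow, or 0.12 after Benjamini-Hochberg adjustment over the 6 families. The gamma subunit did not follow, with Phkg1 at 26.8%, 17.6% and 10.5% in KO and 12.5%, 12.2% and 15.3% in WT, an overlap of the groups and an exact permutation p of 0.6.

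**Figure D4:**
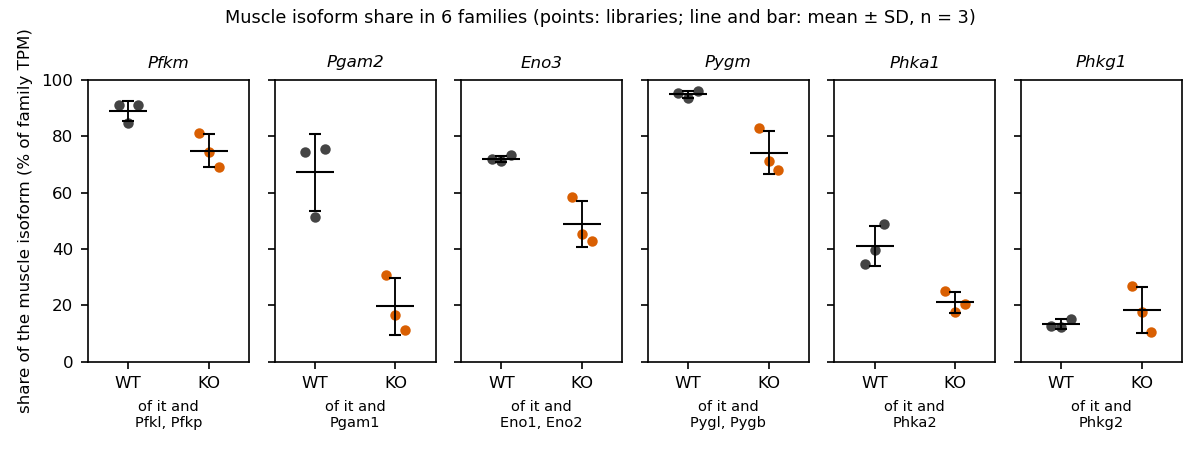
Share of the muscle isoform in the summed TPM of its family for 6 families, a point a library, with the mean and SD of 3 libraries. The largest gap is that of Pgam2, with means of 67.2% in WT and 19.6% in KO, and Phkg1 is the family where the groups overlap.

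Sarcomere genes were compared with the muscle isoforms library by library. As the median over genes of the log2 CPM minus the WT mean, the 6 muscle isoforms were at -0.81, -1.32 and -1.58 in KO1, KO2 and KO3 and at 0.19, -0.45 and 0.35 in WT1, WT2 and WT3. The same measure over 39 sarcomere genes was -0.03, -1.40 and -1.41 in KO and 0.11, -0.31 and 0.17 in WT. KO1 thus had a sarcomere median within the WT range and a muscle isoform median below that of each WT library. KO1 was the highest and KO3 the lowest KO library for 6 of 6 muscle isoforms, and WT2 the lowest WT library for 6 of 6. Of the 39 sarcomere genes 7 were lower and 1 was higher, or 20.5% called, near the 22.7% of all genes tested. By direction they leaned to lower values, with 30 of 39 negative and a median log2 fold change of -0.80. In bulk RNA, fewer cells of a type and less RNA per cell cannot be told apart, and the part of the extent of differentiation in these results was not tested.

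**Figure D5:**
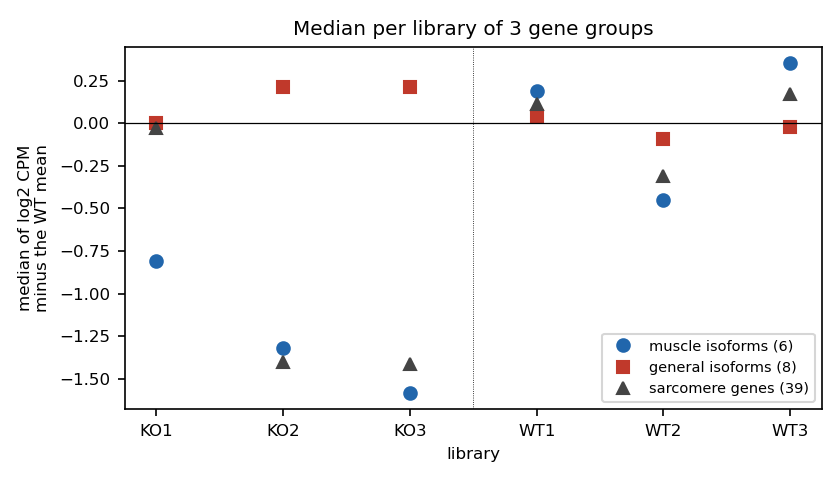
Median over genes of log2 CPM minus the WT mean, in each library, for 6 muscle isoforms (circles), 8 general isoforms (squares) and 39 sarcomere genes (triangles). In KO1 the sarcomere median is -0.03 and the muscle isoform median -0.81, while in KO2 and KO3 both are below -1.3.

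Sequence before the start site was read from the RefSeq windows of GRCm38.p6, which run from 250 bases before the start to 50 after. A window was found for 39 of the 40 genes, all but Slc2a4. Printed are the 250 bases before the start, 5′ to 3′ on the strand of the gene, for the 4 muscle isoforms called lower and for Pgam1, the higher partner of Pgam2. Pgam2 is on the minus strand at chr11:5803797-5804046, Pygm on the plus strand at chr19:6384158-6384407, Phka1 on the minus strand at chrX:102644247-102644496, Pfkm on the plus strand at chr15:98092339-98092588, the most upstream of its 4 windows, and Pgam1 on the plus strand at chr19:41911621-41911870. Capitals mark the E-box CAGCTG, a site type bound by myogenic factors such as MyoD, the hypoxia-response core ACGTG on either strand, where it reads CACGT on the other, and in Pgam2 a match to the MEF2 consensus.
Pgam2: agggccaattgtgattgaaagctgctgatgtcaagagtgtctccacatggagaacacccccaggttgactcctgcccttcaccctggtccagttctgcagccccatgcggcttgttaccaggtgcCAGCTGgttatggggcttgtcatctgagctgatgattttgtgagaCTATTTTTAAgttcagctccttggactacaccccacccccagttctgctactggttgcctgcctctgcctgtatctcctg
Pygm: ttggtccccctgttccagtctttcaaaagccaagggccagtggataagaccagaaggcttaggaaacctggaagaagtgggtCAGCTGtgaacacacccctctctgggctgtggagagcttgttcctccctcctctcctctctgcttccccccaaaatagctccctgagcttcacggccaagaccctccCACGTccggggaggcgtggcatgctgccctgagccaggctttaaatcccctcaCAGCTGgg
Phka1: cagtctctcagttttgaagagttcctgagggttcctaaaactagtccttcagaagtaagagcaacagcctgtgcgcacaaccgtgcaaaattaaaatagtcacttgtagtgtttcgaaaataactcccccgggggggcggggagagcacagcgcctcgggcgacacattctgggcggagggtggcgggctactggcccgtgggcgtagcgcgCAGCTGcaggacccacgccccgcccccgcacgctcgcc
Pfkm: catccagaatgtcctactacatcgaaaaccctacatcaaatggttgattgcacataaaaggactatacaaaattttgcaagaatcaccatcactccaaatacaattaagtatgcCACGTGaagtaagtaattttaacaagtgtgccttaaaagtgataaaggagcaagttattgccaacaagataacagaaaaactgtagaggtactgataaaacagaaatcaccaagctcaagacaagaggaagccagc
Pgam1: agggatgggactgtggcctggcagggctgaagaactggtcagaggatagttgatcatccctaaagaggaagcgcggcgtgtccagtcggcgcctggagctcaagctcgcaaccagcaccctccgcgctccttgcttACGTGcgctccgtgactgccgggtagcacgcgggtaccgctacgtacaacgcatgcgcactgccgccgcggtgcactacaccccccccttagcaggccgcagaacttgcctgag

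Pgam2 held an E-box starting at position -125 and the MEF2 match at -80, counted from the RefSeq start. Pygm held E-boxes at -168 and -8 and the hypoxia-response core at -61, and Phka1 an E-box at -38. Pfkm held no CAGCTG in any of its windows, and in the printed one held the core on both strands, starting at -136 and -135. Pgam1 held the hypoxia-response core at -114 and no CAGCTG in its window. Over the 39 genes with a window, CAGCTG was present in 13, or 33.3%, against 18.3% of 27025 genes with a window in the table. Among those lower in KO it was in 4 of 10, Pgam2, Phka1, Pygm and Ugp2, among those higher in 0 of 4, and among muscle isoforms in 4 of 6, Eno3, Pgam2, Phka1 and Pygm. The core ACGTG was present in 21 of 39 genes, or 53.8%, against 21.8% of all, in 7 of 10 lower and in 1 of 4 higher genes. The MEF2 consensus was in 2 of 39 genes, or 5.13%, against 3.7%, and TATAAA in 3 of 39, or 7.69%, against 15.7%. Both strands were searched, genes with several windows counted when any of them matched, and a match describes letters only.

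Position on the chromosome was shared by some of the genes. Tpi1, Eno2 and Gapdh lie close together on chromosome 6, and Eno3, Slc2a4, Pgam2 and Ugp2 are on chromosome 11. The median log2 fold change of other tested genes within 5 Mb, after taking off the median of all genes, was -0.06 around Tpi1 and Gapdh, -0.24 around Slc2a4, Eno3 and Ugp2, -0.33 around Pgam2, -0.36 around Gyg and -0.19 around Pygm. Around Hk1 it was -0.05, around Pfkm 0.00, around Pfkfb3 -0.12 and around Phka1 0.21. For the higher genes it was -0.13 around Pfkl, -0.07 around Pgam1, 0.15 around Eno1 and -0.14 around Pfkfb4. The medians of neighbours were thus mostly negative around lower genes, and around higher genes all but that of Eno1 were negative too. All were far smaller than the changes of the genes themselves. Exons of some members overlap other genes, with 876 bases of Phkg2, 767 of Pkm, 748 of Pfkp, 741 of Gpi1, 630 of Phkg1, 359 of Pfkm and 157 of Hk1 among them, and whether counting used strand is not given in the sources used here.

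Routes that feed from or into glycolysis were followed with lists of further genes, counted against the same test. Of 14 other tested genes of glycolysis and glucose entry, 1 was higher, Slc2a10, a glucose carrier, and 3 were lower, or 28.6% called, near the 22.7% of all genes tested. Slc2a10 had 87, 50 and 30 counts in KO and 12, 8 and 9 in WT, and was tested only because of its KO counts. Gpd2, the mitochondrial glycerol phosphate dehydrogenase, was at 33.2 to 43.5 CPM in KO and 69.5 to 85.8 CPM in WT, and the log2 fold change was -0.98 for the carrier Slc2a8 and -0.68 for Tigar, a fructose bisphosphatase. Of 24 other tested glycogen genes, 5 were lower and 29.2% were called in either direction, against the same 22.7%. The lower ones include Prkaa2, the catalytic alpha 2 subunit of AMP-activated kinase, at -1.56 ± 0.25 (SE), Stbd1, which ties glycogen to membranes, at -1.38 ± 0.20, and Pgm2, a phosphoglucomutase, at -1.01 ± 0.26. Median log2 fold changes were -0.21 for the glycolysis list and -0.14 for the glycogen list.

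The pentose phosphate branch leaves glycolysis at glucose 6-phosphate and yields NADPH and ribose, and the hexosamine branch leaves at fructose 6-phosphate. All 12 genes of both branches were tested, with 3 higher and 4 lower, or 58.3% called against 22.7% of all genes tested. The dehydrogenases of the pentose branch were higher, Pgd at 85.7, 113 and 85.9 CPM in KO against 37.4, 35.5 and 41.5 CPM in WT and G6pdx at 42.0, 68.7 and 64.6 CPM against 25.2, 36.4 and 24.9 CPM. Their log2 fold changes were 1.32 ± 0.15 (SE) and 1.02 ± 0.23, with adjusted p of 0.00235 and 0.0197. Not all of the pentose branch was higher. Pgls, also of that branch, was lower at 38.5, 53.2 and 34.9 CPM in KO against 71.9, 60.6 and 70.7 CPM in WT. Its log2 fold change was -0.68 ± 0.18, with an adjusted p of 0.0307. Gfpt1, which opens the hexosamine branch, was lower at 78.4, 63.6 and 78.2 CPM in KO against 127, 133 and 109 CPM in WT, a log2 fold change of -0.74 ± 0.14 with an adjusted p of 0.0111. Its relative Gfpt2, also counted as lower, had 0, 2 and 3 counts in KO and 12, 12 and 11 in WT, and was tested only because of its WT counts.

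Genes that take pyruvate on into mitochondria were lower where called. Of 14 genes for pyruvate entry 5 were lower and none higher, or 35.7% against 10.6% lower among all genes tested, with a median log2 fold change of -0.62, among them Pdk4 and Pdk2, kinases that switch pyruvate dehydrogenase off, at -1.51 and -1.16, and Pdhx and Dlat, parts of the complex itself, at -0.85 and -0.82. Of 18 TCA cycle genes 6 were lower and none higher, or 33.3% against the same 10.6%, all 18 had a negative value and the median was -0.51, with Idh3a lowest at -1.42 ± 0.22 (SE). Of 11 genes of phosphagen and muscle energy supply 4 were lower and 1 was higher, or 45.5% called against 22.7%, and the mitochondrial creatine kinase Ckmt2 was lowest at -3.51 ± 0.64. These lists share libraries with all results above.

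Regulators known to act on glucose genes in muscle included genes with larger changes than that of Slc2a4. Of 18 tested, 6 were lower, against 10.6% of all genes tested, with a median log2 fold change of -0.50. Esrrg, counted as lower, had 19, 0 and 5 counts in KO and 188, 154 and 223 in WT. It was tested only because of those WT counts. Ppargc1a, a coactivator of mitochondrial genes, had 2.27, 1.40 and 1.03 CPM in KO and 37.6, 21.4 and 37.9 CPM in WT, a log2 fold change of -4.37 ± 0.36 (SE) with an adjusted p of 0.000728. Mef2c, a transcription factor of differentiating muscle, had 17.1, 2.34 and 1.17 CPM in KO and 80.8, 162 and 189 CPM in WT, a log2 fold change of -4.40 ± 0.95 with an adjusted p of 0.0169. Of 16 tested hypoxia-responsive genes 2 were higher, Adm and Egln1, and 2 were lower, P4ha2 and Kdm3a, with a median of 0.17, and the 25% called is near the 22.7% of all genes tested.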

How the data were processed

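Per the labels and the study's methods, total RNA of 6 C2C12 libraries was sequenced and processed by the authors with STAR, featureCounts, StringTie and Salmon, among other tools. The authors deposited a table of gene counts, not normalised, and StringTie tables with TPM values, which the authors scaled to a fixed sum per library. The methods name GRCm39 and the submitters' notes mm9, but 83.2% of 45137 shared genes have the start and end of GENCODE M21, so coordinates are given as GRCm38. Counts were fitted with edgeR 4.0.16 in R 4.3.3 (TMM factors, filterByExpr, quasi-likelihood F test, Benjamini-Hochberg adjustment over 14828 genes, threshold 0.05). A standard error is the log2 fold change divided by the square root of F. The procedure was tested on simulated data. Muscle isoform ratios used TPM with 0.01 added and an exact two-sided permutation test. Members and gene lists were chosen with earlier results of these data known. The text names all 40 genes, with every library for called genes and for isoform families, and list genes only where called, at most 4 a list, by size of change; some list genes are not reported here. Alternatives were DESeq2 1.42.0, DESeq2 and upper-quartile factors, other filters, limma 3.58.1 on log2(TPM + 1) and log2(TPM + 0.1), a replicate block and leaving out each library. Counting error and library spread limit low genes such as Phkg1 and Pfkfb1.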

Additional observations from a re-analysis of the deposited data

How the results depend on the processing

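Of the 15 called genes, 6 kept their call in all 15 alternatives, and 7 of the 38 tested genes, none of them called, changed sign in at least 1. The count of called members was 7 to 20 when a library was left out, and that of all genes 933 to 4712, with the lowest values without WT1. Members called lower numbered 4 to 15 in these fits. Limma on log2(TPM + 1) without a filter called 6 members, 2 higher and 4 lower, and 1075 genes in all. With a filter, limma on log2(TPM + 1) called 18 members and split all calls into 1004 higher and 1390 lower, against 1796 higher and 1565 lower in edgeR. DESeq2 called 18 members and edgeR without a filter 21. Replicate numbers did not pair the libraries, with correlations of 0.137, -0.116 and 0.00413 between libraries of the same number and KO2 and KO3 correlating best with another number, and a fit with the replicate block called 12 members and 2520 genes, without Eno1, Gapdh, Hk1 and Tpi1. The log2 fold change of Pygb ran from -0.14 to 0.16 and was -0.06 without WT2 and -0.01 without WT3, and that of Phkg1 from -0.16 without KO1 to 0.47 without WT3. The Phkg isoform balance of 0.44 was -0.00 from count-based CPM in place of TPM. The balance of the other 5 families kept its sign throughout. The cause of these shifts was not tested. With 3 libraries a genotype, calls near the threshold depend on single libraries.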
